A study of Mus musculus with 18 samples.

Results

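The kidney takes glucose back from the filtrate and also makes it. Expression of 10 genes that carry out these tasks was compared among the kidneys of undefeated mice, defeated mice and defeated mice given an antidepressant. The 10 genes were chosen by name from the 32675 genes measured: the sodium-glucose cotransporters Slc5a2 and Slc5a1, the facilitative transporters Slc2a2 and Slc2a1, the gluconeogenic enzymes Pcx, Pck1, Pck2, Fbp1 and G6pc, and the glucose 6-phosphate transporter Slc37a4. Each matched a single row, and all 10 passed the filter on low counts. Right kidneys came from 18 male C57BL/6 mice in 3 groups of 6. Ctrl mice were handled daily but never met an aggressor. All mice were 6 weeks old when bought. Those in the PBS and FLX groups were attacked by a CD-1 resident on 14 days, for 10 min each, which is chronic social defeat stress (CSDS). They were injected into the peritoneum every day with phosphate-buffered saline (PBS) or with the serotonin reuptake inhibitor fluoxetine (FLX) at 10 mg per kg. No undefeated group received either injection, so defeat and injection cannot be told apart in PBS versus Ctrl, and fluoxetine was seen only on top of defeat.

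In the proximal tubule, the cotransporters of the brush border draw glucose into the cell along the sodium gradient. SGLT2, encoded by Slc5a2, works in the early segments with high capacity, and SGLT1, encoded by Slc5a1, recovers what remains further downstream. GLUT2 and GLUT1, encoded by Slc2a2 and Slc2a1, let glucose leave through the basolateral side. The same cells make glucose from lactate, glutamine and other precursors. Pyruvate carboxylase (Pcx) and phosphoenolpyruvate carboxykinase (Pck1 in the cytosol, Pck2 in mitochondria) lead into the pathway, fructose 1,6-bisphosphatase (Fbp1) carries out a later one-way step, and glucose 6-phosphatase (G6pc) with its partner transporter Slc37a4 releases free glucose.

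Levels are given as FPKM, fragments scaled to transcript length and to the number of mapped fragments, which allows genes to be compared per length. Total counts were 73000203 to 78650116 per mouse in the Ctrl group and 72149987 to 78711121 in the PBS group. They were 48928823 to 79061296 in the FLX group, in which replicates 3 to 6 lay at 52073640 or below. The counts of the 10 genes ranged from 990 to 247736 per mouse, so counting error was small beside the spread between mice. PBS replicate 6 stood apart from the other 5 PBS mice, with 49.2 FPKM of Lcn2, which injured tubules and neutrophils express, against 0.985 to 4.42. It had 376 FPKM of Miox, an enzyme gene of the proximal tubule, against 1234 to 1632. The study left out a PBS mouse for excessive inflammatory expression without naming it, and PBS replicate 6 was taken to be that mouse. Every comparison was therefore made with 5 PBS mice and repeated with all 6. A gene was called changed at an adjusted p under 0.05 in edgeR (two-sided quasi-likelihood F test, Benjamini-Hochberg adjustment over all genes tested), and fold changes are given on the log2 scale ± SE. In whole kidneys, fewer cells of a type and less RNA per cell cannot be told apart.

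In the Ctrl group, Fbp1 had the highest level of the 10 genes at 499.6 ± 42.3 FPKM (SD, n = 6), followed by Pck1 at 349 ± 50.4. Only 0.361% of the genes tested had a mean level above that of Fbp1 and 0.509% above that of Pck1. G6pc at 133 ± 14.3, Slc5a2 at 119 ± 9.86 and Pcx at 111 ± 8.07 came next, and neighbours among these overlapped in range. Slc37a4 followed at 64.5 ± 6.32. The lower levels were those of Slc2a2 at 14.8 ± 2.73, Slc5a1 at 12.7 ± 0.937 and Slc2a1 at 10.2 ± 1.17, again with overlapping neighbours. Pck2 was lowest at 2.51 ± 0.339. The order changed in the PBS group: Pck1 exceeded Fbp1 in 4 of the 6 PBS mice but in none of the Ctrl and FLX mice, and G6pc exceeded Slc5a2 in 1 of 6 PBS mice against 5 of 6 Ctrl mice and 5 of 6 FLX mice.

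**Figure D1:**
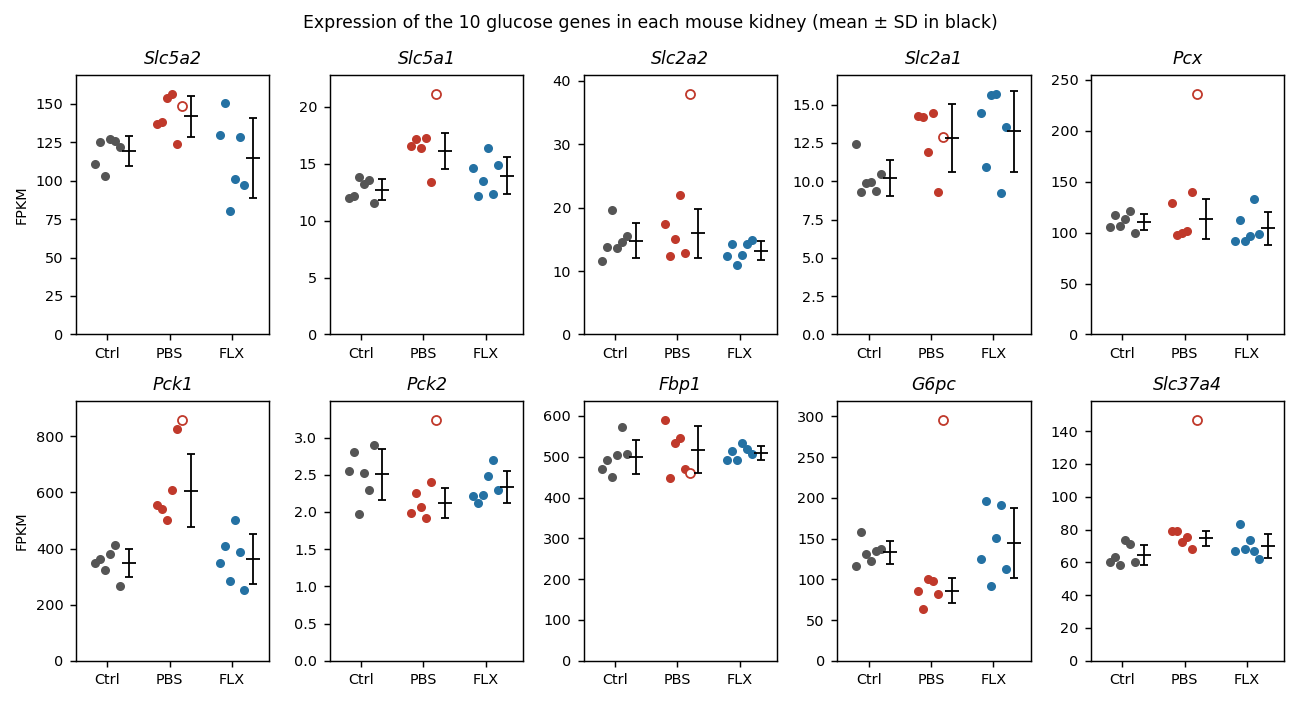
FPKM of the 10 genes in each kidney, by group, on axes that start at 0. Points are mice, the open point is PBS replicate 6, and black bars are means ± SD without that mouse. The PBS points lie above all Ctrl points for Pck1, and 5 of 6 lie below all Ctrl points for G6pc.

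The stretches of genome just before the start sites of Pck1, G6pc and Slc5a1 are shown because the comparisons below turn on these genes. They come from RefSeq promoter windows of GRCm38.p6, 250 bases before to 50 after a start site, which were at hand for 9 of the 10 genes (12 windows). Each is printed 5′ to 3′ on the plus strand and ends before the earliest annotated start, which for G6pc lies upstream of the RefSeq start and leaves 95 bases. Capitals mark matches, on either strand, to short motifs of factors that act on metabolic genes. The motifs were the cyclic AMP response element core TGACG, the E-box CACGTG, the D-box TTATGNAA and the glucocorticoid receptor core TGTTCT.
Pck1, chr2:173152823-173153047: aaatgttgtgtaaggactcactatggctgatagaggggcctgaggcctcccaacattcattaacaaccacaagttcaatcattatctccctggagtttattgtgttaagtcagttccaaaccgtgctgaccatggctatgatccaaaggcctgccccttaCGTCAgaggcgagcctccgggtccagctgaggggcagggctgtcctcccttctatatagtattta
G6pc, chr11:101367466-101367560: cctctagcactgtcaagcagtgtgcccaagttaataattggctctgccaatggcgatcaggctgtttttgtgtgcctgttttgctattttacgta
Slc5a1, chr5:33103969-33104218: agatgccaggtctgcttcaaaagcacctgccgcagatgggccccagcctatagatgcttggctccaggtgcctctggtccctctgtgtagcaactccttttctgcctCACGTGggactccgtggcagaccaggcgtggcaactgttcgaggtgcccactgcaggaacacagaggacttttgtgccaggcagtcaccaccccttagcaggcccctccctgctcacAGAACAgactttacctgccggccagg
The Pck1 stretch held the cyclic AMP response element core, read on the opposite strand, 90 bases before the RefSeq start. The G6pc stretch held none of these motifs. The Slc5a1 stretch held an E-box at 143 bases and the glucocorticoid receptor core, on the opposite strand, at 26 bases. Among 32851 windows of all genes, 20.8% held TGACG, 19.0% TGTTCT, 7.15% CACGTG and 3.38% TTATGNAA. These are matches of letters and not measured binding sites. Among windows of the other members, Slc37a4 held TGACG and Pcx held CACGTG, and no member window held TTATGNAA.

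Pck1 was higher in defeated mice given PBS than in Ctrl mice and lower in defeated mice given fluoxetine than in those given PBS. Pck1 (ENSMUSG00000027513, chromosome 2, 173153048 to 173159273, plus strand, GRCm38) encodes the cytosolic enzyme that turns oxaloacetate into phosphoenolpyruvate. It measured 347, 363, 323, 381, 413 and 267 FPKM in Ctrl replicates 1 to 6. PBS replicates 1 to 5 held 554, 543, 502, 608 and 827 FPKM, and PBS replicate 6 held 858. FLX replicates 1 to 6 held 348, 411, 285, 500.2, 387 and 254 FPKM. All PBS mice lay above all Ctrl mice and above all FLX mice, the nearest being FLX replicate 4, while Ctrl and FLX overlapped.

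In PBS versus Ctrl, Pck1 rose 1.74-fold (log2 0.80 ± 0.16 SE, edgeR adjusted p = 0.00929). With all 6 PBS mice it was 0.88 (adjusted p = 0.00586). From PBS to FLX, Pck1 fell by 0.83 ± 0.16 SE on the log2 scale (edgeR adjusted p = 0.0209), and with all 6 PBS mice by 0.92 (adjusted p = 0.0164). The exact two-sided permutation test on log2(FPKM + 0.1) gave p = 0.00433 in both comparisons, the smallest it can give for 6 against 5 mice. FLX versus Ctrl gave a log2 fold change of -0.03 ± 0.15 SE (edgeR adjusted p = 0.935), whose sign turned with limma on FPKM (0.04). The 2 comparisons that involve PBS share the PBS mice and are not independent of each other. The increase in PBS versus Ctrl was called in 17 of 17 fits that left out a mouse. The decrease in FLX versus PBS was called in 14 of 17, with adjusted p values of up to 0.0675 without FLX replicate 1, FLX replicate 3 or PBS replicate 4.

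Pck1 is also a gene of fat cells, where it serves glycerol synthesis. The summed FPKM of 6 fat markers (Adipoq, Plin1, Cidec, Lep, Ucp1 and Cidea) was 1.0 to 71.5 in Ctrl, 5.89 to 594 in the 5 PBS mice and 7.47 to 408 in FLX mice, with medians of 6.93, 39.0 and 24.01. None of the 6 markers was called in any comparison, but PBS versus Ctrl gave them a median of 2.22 on the log2 scale, FLX versus Ctrl 2.22 and FLX versus PBS -0.15. PBS replicate 5 had both the highest fat sum, 594, and the highest Pck1 of the 5 PBS mice. PBS replicate 2 had a fat sum of 5.89, within the Ctrl range, with 543 FPKM of Pck1, and PBS replicate 6 had a fat sum of 4.58 with 858 FPKM. FLX replicate 5 had a fat sum of 408 with 387 FPKM of Pck1, within the Ctrl range of Pck1. Without PBS replicate 5 the increase in Pck1 was still called. The part of fat in the level of Pck1 was not tested.

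**Figure D2:**
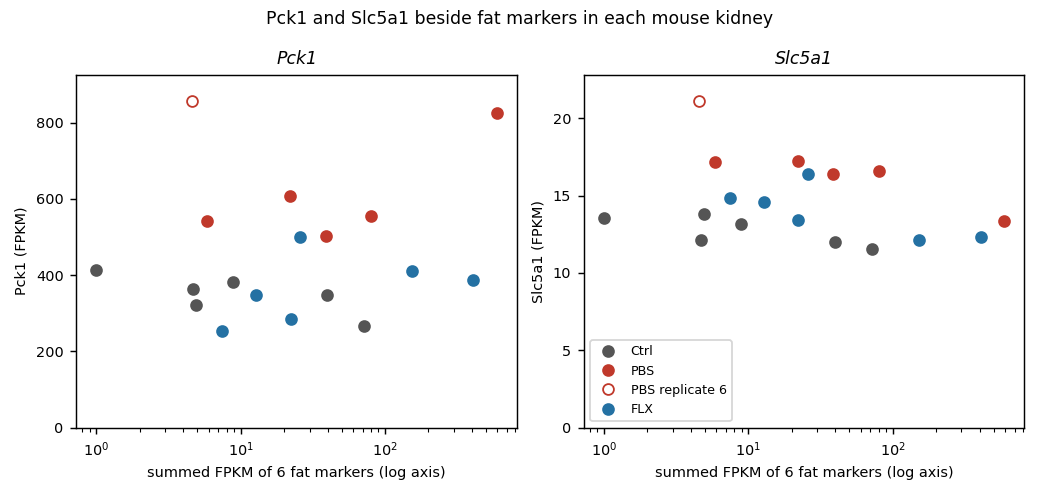
Pck1 (left) and Slc5a1 (right) in FPKM against the summed FPKM of 6 fat markers on a log axis, with 1 point per mouse and PBS replicate 6 open. PBS mice with fat sums of 4.58 and 5.89 had 858 and 543 FPKM of Pck1, and the PBS mouse with the highest fat sum, 594, had the lowest Slc5a1 of the PBS mice, 13.4 FPKM.

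G6pc moved against Pck1 in 5 of the 6 PBS mice, but the comparison just missed the threshold. G6pc (ENSMUSG00000078650, chromosome 11, 101367561 to 101377903, plus strand) encodes the phosphatase that forms free glucose in the last step of gluconeogenesis. Ctrl replicates 1 to 6 held 117, 158, 131, 123, 134 and 137 FPKM. PBS replicates 1 to 5 held 85.6, 63.8, 101, 98.4 and 82.1 FPKM, all below the lowest Ctrl mouse, whereas PBS replicate 6 held 295, the highest of the 18 mice. FLX replicates 1 to 6 held 125, 196, 91.6, 150.5, 191 and 113 FPKM, which spanned the Ctrl range and beyond it. With 5 PBS mice the log2 fold change in PBS versus Ctrl was -0.62 ± 0.17 SE (edgeR adjusted p = 0.0512). The exact two-sided permutation test for this gene alone gave p = 0.00433, the smallest possible, unadjusted for the other genes. With DESeq2 the decrease was called (adjusted p = 0.00828), as it was with upper-quartile scaling in edgeR (adjusted p = 0.0346). With all 6 PBS mice the log2 fold change was -0.16 (edgeR adjusted p = 0.816). In FLX versus PBS it was 0.65 ± 0.17 SE (edgeR adjusted p = 0.0959), with 5 of 6 FLX mice above all 5 PBS mice, and 0.19 (adjusted p = 0.864) with all 6 PBS mice. DESeq2 called this increase with 5 PBS mice (adjusted p = 0.0106). FLX versus Ctrl gave 0.03 ± 0.16 SE (edgeR adjusted p = 0.950), and with upper-quartile scaling -0.0028.

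The ratio of Pck1 to G6pc was looked at after these values were seen and is given as a description with no test. It was 1.96 to 3.10 in Ctrl mice and 2.03 to 3.32 in FLX mice. In PBS replicates 1 to 5 it was 6.48, 8.50, 4.97, 6.18 and 10.1. PBS replicate 6, where both genes were highest, had a ratio of 2.90, within the range of the other groups.

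**Figure D3:**
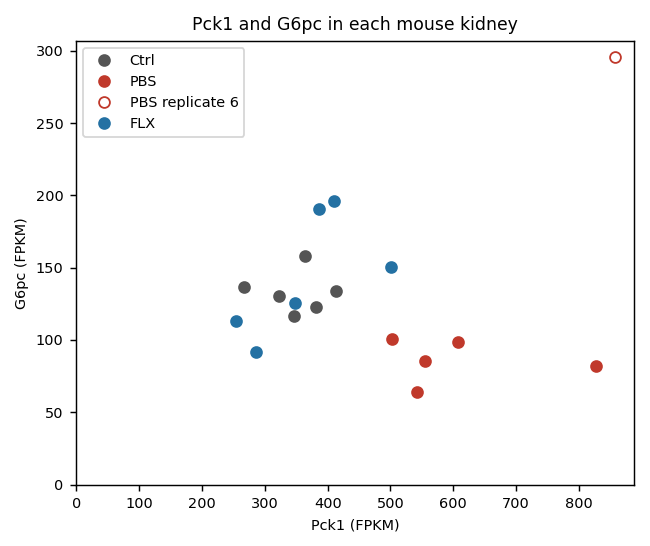
Pck1 (x axis) against G6pc (y axis) in FPKM, with 1 point per mouse. PBS replicates 1 to 5 lie at high Pck1 and low G6pc, apart from the Ctrl and FLX points, and PBS replicate 6 (open) lies at 858 FPKM of Pck1 and 295 of G6pc.

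The other enzymes and Slc37a4 were not called in any of the 3 comparisons. Fbp1 (ENSMUSG00000069805, chromosome 13) stood at 499.6 ± 42.3 FPKM in Ctrl (SD, n = 6), 517 ± 58.1 in PBS (SD, n = 5) and 509 ± 16.7 in FLX mice (SD, n = 6), with 461 in PBS replicate 6. Its log2 fold change in PBS versus Ctrl was 0.06 ± 0.09 SE. Pcx (ENSMUSG00000024892, chromosome 19) had 111 ± 8.07, 113 ± 19.6 and 104 ± 16.2 FPKM in the same order, with 236 in PBS replicate 6, and a log2 fold change of 0.04 ± 0.12 SE in PBS versus Ctrl. Among the other mice, Pcx was highest in PBS replicate 5 (139.7 FPKM), FLX replicate 5 (133) and PBS replicate 1 (129), whose fat sums were 594, 408 and 80.1. The next highest was Ctrl replicate 5, with 122 FPKM of Pcx and the lowest fat sum of all mice. FLX replicate 2, with a fat sum of 153, had 113 FPKM of Pcx. Ctrl replicate 6 had the highest fat sum of the Ctrl mice, 71.5, and the lowest Pcx of that group, 99.7 FPKM. The part of fat in the level of Pcx was not tested. Pck2 (ENSMUSG00000040618, chromosome 14) had 2.51 ± 0.339, 2.12 ± 0.203 and 2.34 ± 0.214 FPKM, and its log2 fold change in PBS versus Ctrl was -0.24 ± 0.10 SE (edgeR adjusted p = 0.207). The mitochondrial Pck2 thus had a value of the opposite sign to that of cytosolic Pck1. Slc37a4 (ENSMUSG00000032114, chromosome 9), which carries glucose 6-phosphate to G6pc inside the endoplasmic reticulum, had 64.5 ± 6.32, 74.8 ± 4.58 and 70.1 ± 7.41 FPKM. Its log2 fold change in PBS versus Ctrl was 0.22 ± 0.10 SE (edgeR adjusted p = 0.236) and 0.42 (adjusted p = 0.123) with PBS replicate 6, which held 147 FPKM. The exact two-sided permutation test for Slc37a4 gave p = 0.0260, and 0.0130 with PBS replicate 6, both unadjusted for the other genes.

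Of the cotransporters, Slc5a1 was called in PBS versus Ctrl, where it was higher. Slc5a1 (ENSMUSG00000011034, chromosome 5, 33104219 to 33162870, plus strand) held 11.99, 12.1, 13.8, 13.2, 13.6 and 11.5 FPKM in Ctrl replicates 1 to 6. PBS replicates 1 to 5 held 16.6, 17.2, 16.4, 17.2 and 13.4 FPKM, and PBS replicate 6 held 21.1. FLX replicates 1 to 6 held 14.6, 12.1, 13.4, 16.4, 12.3 and 14.9 FPKM. All PBS mice except replicate 5 lay above all Ctrl mice, and the FLX mice overlapped both groups. The log2 fold change in PBS versus Ctrl was 0.35 ± 0.09 SE (edgeR adjusted p = 0.0329) and 0.41 (adjusted p = 0.0188) with all 6 PBS mice. The call lay near the threshold. It was made in 10 of 17 fits with a mouse left out, in which the log2 fold change was 0.31 to 0.43. It was not made when that mouse was Ctrl replicate 1, 2, 4 or 6 or PBS replicate 1, 2 or 4 (adjusted p of up to 0.0989). Nor was it made with upper-quartile scaling (adjusted p = 0.0631). Without PBS replicate 5, the mouse with the highest fat sum, the adjusted p was 0.00719. The lowest FLX levels, 12.1 and 12.3 FPKM, were those of FLX replicates 2 and 5, which had the highest FLX fat sums, 153 and 408. PBS replicate 1, with a fat sum of 80.1, had 16.6 FPKM. The part of fat in the level of Slc5a1 was not tested. In FLX versus PBS the log2 fold change was -0.31 ± 0.09 SE (edgeR adjusted p = 0.136, DESeq2 adjusted p = 0.0496), and in FLX versus Ctrl 0.05 ± 0.09 SE (edgeR adjusted p = 0.815).

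Slc5a2 (ENSMUSG00000030781, chromosome 7, 128265657 to 128272430, plus strand) was not called in any comparison. It held 111, 125, 103, 127, 126 and 122 FPKM in Ctrl replicates 1 to 6 and 136, 138, 154, 156 and 124 FPKM in PBS replicates 1 to 5, with 149 in PBS replicate 6. FLX replicates 1 to 6 held 129.7, 151, 80.2, 101, 129 and 97.0 FPKM, the widest spread of the 3 groups. The log2 fold change was 0.26 ± 0.14 SE (edgeR adjusted p = 0.358) in PBS versus Ctrl and -0.40 ± 0.14 SE (edgeR adjusted p = 0.240) in FLX versus PBS. As for Slc5a1, all PBS mice except replicate 5 lay above all Ctrl mice. The exact two-sided permutation test for PBS versus Ctrl gave p = 0.0173 for Slc5a2 and 0.0130 for Slc5a1. With all 6 PBS mice it gave 0.00866 and 0.00649, all unadjusted for the other genes. Within a mouse, the ratio of Slc5a1 to Slc5a2 does not depend on scaling between mice. It was 0.108 ± 0.0141 in Ctrl (SD, n = 6), 0.114 ± 0.00813 in PBS (SD, n = 5) and 0.129 ± 0.0371 in FLX mice (SD, n = 6). The exact two-sided permutation test gave p = 0.325 for PBS versus Ctrl, 0.563 for FLX versus PBS and 0.301 for FLX versus Ctrl (3 comparisons, unadjusted), so a shift from either cotransporter to the other was not detectable.

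Neither exit transporter was called. Slc2a2 (ENSMUSG00000027690, chromosome 3, 28697903 to 28731359) had 14.8 ± 2.73 FPKM in Ctrl (SD, n = 6), 15.9 ± 3.92 in PBS (SD, n = 5) and 13.2 ± 1.51 in FLX mice (SD, n = 6), and 38.0 in PBS replicate 6. Its log2 fold change in PBS versus Ctrl was 0.13 ± 0.15 SE and 0.41 (edgeR adjusted p = 0.296) with that mouse. Slc2a1 (ENSMUSG00000028645, chromosome 4, 119108711 to 119137983) had 10.2 ± 1.17, 12.8 ± 2.22 and 13.3 ± 2.64 FPKM. Here both defeated groups were on the same side of Ctrl, with log2 fold changes of 0.34 ± 0.15 SE (edgeR adjusted p = 0.227) in PBS versus Ctrl and 0.29 ± 0.14 SE (edgeR adjusted p = 0.257) in FLX versus Ctrl. PBS replicates 3 and 5, with 11.9 and 9.31 FPKM, and FLX replicates 2 and 5, with 10.9 and 9.25 FPKM, did not exceed the highest Ctrl mouse.

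**Figure D4:**
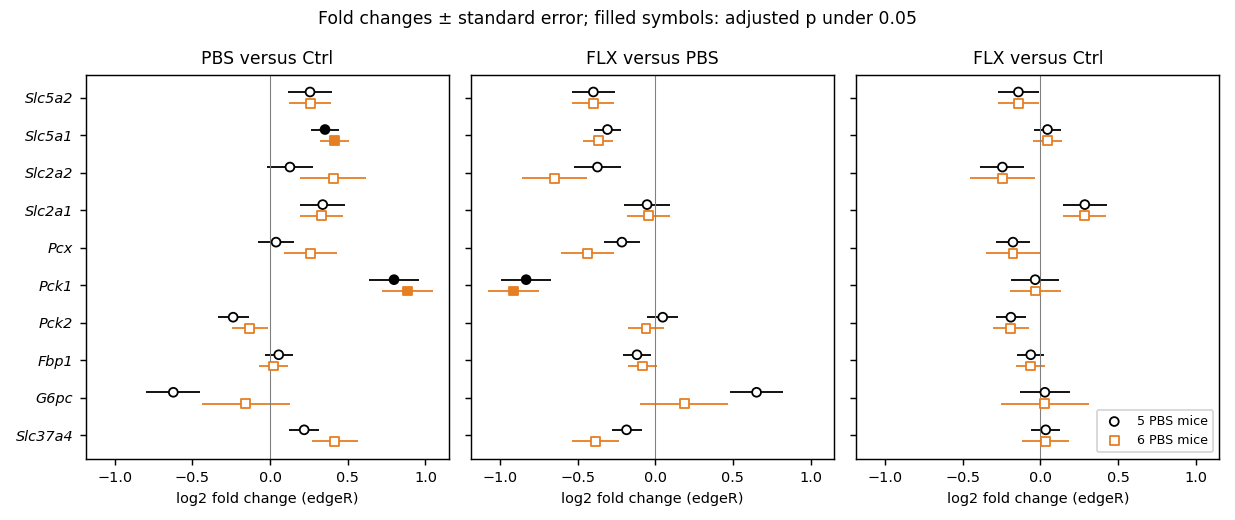
Log2 fold changes from edgeR ± standard error for the 10 genes in the 3 comparisons, with 5 PBS mice (circles) and all 6 (squares). Filled symbols mark an adjusted p under 0.05, which only Pck1 and Slc5a1 in PBS versus Ctrl and Pck1 in FLX versus PBS reached.

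With 5 PBS mice, 2 of the 10 genes were called in PBS versus Ctrl, both higher, where 3.81% of all 20251 genes tested were called (433 higher and 339 lower). With upper-quartile scaling the calls among all genes were 314 higher and 449 lower, and those among the 10 were Pck1, higher, and G6pc, lower. Between FLX and PBS, 1 of 10 was called, against 0.726% of all genes, and in FLX versus Ctrl 0 of 10, against 3.67% (422 higher and 322 lower, or 340 and 412 with upper-quartile scaling). With limma on log2(FPKM + 0.1) the calls among all genes were 979 higher and 235 lower in FLX versus Ctrl, and 192 higher and 63 lower in FLX versus PBS, against 62 and 85 with edgeR. For FLX versus Ctrl, no gene of the 10 had an unadjusted edgeR p under 0.05, and DESeq2 also called none. With all 6 PBS mice the same genes were called, and the shares of all genes were 4.28%, 0.557% and 1.77%. Groups did not overlap in FPKM for Pck1 and G6pc in PBS versus Ctrl (3.52% of all genes) and for Pck1 in FLX versus PBS (2.92%). None of the 10 was without overlap in FLX versus Ctrl (3.4%). With PBS replicate 6 only Pck1 was without overlap, where 2.71% of all genes were in PBS versus Ctrl and 2.02% in FLX versus PBS. The median log2 fold change of the 10 genes was 0.17 in PBS versus Ctrl, -0.20 in FLX versus PBS and -0.05 in FLX versus Ctrl, against -0.01, -0.003 and -0.01 over all genes tested.

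A further 81 genes of glucose handling were counted in the same fits, and all passed the filter. In PBS versus Ctrl, 16 were higher, 0 lower and 65 not called, with a median log2 fold change of 0.27, where 3.81% of all genes tested were called. With all 6 PBS mice, 13 were higher and 1 lower, and with upper-quartile scaling 12 were higher and 1 lower. Of the 8 enzymes that gluconeogenesis and glycolysis share, 5 rose. They were Aldoa (0.47), Pgk1 (0.33), Pgam1 (0.39), Eno1 (0.65, edgeR adjusted p = 0.00149) and Gpi1 (0.30). The other phosphatase genes of the pathway, G6pc3 (-0.04) and Fbp2 (0.30, adjusted p = 0.251), were not called. Reads of Aldoa, which has 2 rows in the table, and of Eno1 may be shared with near-identical copies, so their values are less certain.

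Of the 17 genes of one-way steps of glycolysis, 3 rose: the phosphofructokinases Pfkl (0.93, from 6.47 ± 0.418 FPKM in Ctrl to 12.4 ± 3.71 in PBS, adjusted p = 0.00249) and Pfkp (0.45), and pyruvate kinase Pkm (0.74). Pdk2, which restrains pyruvate oxidation, had 0.09 and was not called. In precursor supply, 2 of 17 rose, the cytosolic aspartate aminotransferase Got1 (0.57) and the mitochondrial malate dehydrogenase Mdh2 (0.30), which serve the path of carbon to Pck1. Ldhb (0.18) and Mdh1 (0.12) were not called. Of 7 other cotransporter genes, 3 rose: Slc5a3, a myo-inositol carrier (0.95), Slc5a10, which carries mannose and fructose (0.56), and Slc5a11 (0.38). Pdzk1ip1, a partner of SGLT2, had -0.05 and was not called. None of 8 other facilitative hexose transporters was called, Slc2a5 having 0.11 and Slc2a4 0.48. In fructose use, 1 of 4 rose, Tkfc (0.40), while Khk (-0.10) and Sord (-0.22) were not called. With all 6 PBS mice, Slc5a3, Slc5a11, Pgk1 and Mdh2 were no longer called, and with upper-quartile scaling Slc5a11, Pgk1, Mdh2 and Gpi1 were not.

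Of the 18 regulators, 2 rose in PBS versus Ctrl. Sgk1, a kinase gene induced by glucocorticoids, was at 13.1 ± 4.51 FPKM in Ctrl (SD, n = 6) and 39.8 ± 14.5 in PBS mice (SD, n = 5), higher on the log2 scale by 1.61 ± 0.23 SE (edgeR adjusted p = 0.000694). Cebpb, a transcription factor gene of the acute response that also acts on gluconeogenic genes, rose from 10.6 ± 1.82 to 26.9 ± 8.04 FPKM, a log2 fold change of 1.34 ± 0.16 SE (edgeR adjusted p = 0.000143). Hnf4a (0.27) was not called. Foxo1, a transcription factor gene of the fasting response, was higher with all 6 PBS mice (0.43, edgeR adjusted p = 0.0382) but not called with 5 (adjusted p = 0.0505).

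Between FLX and PBS, 0 of the 81 genes were higher and 1 was lower, Cebpb, which fell by 0.86 on the log2 scale to 15.8 ± 1.47 FPKM (SD, n = 6; edgeR adjusted p = 0.0157), where 0.726% of all genes were called. The median of the 81 was -0.20, with values above 0 for 15 of them. In FLX versus Ctrl, 2 were higher, Sgk1 (1.03, adjusted p = 0.0173) and Creb1 (0.46, adjusted p = 0.0375), where 3.67% of all genes were called, and the median was -0.001. Sgk1 stood at a log2 fold change of -0.58 (adjusted p = 0.314) in FLX versus PBS.

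**Figure D5:**
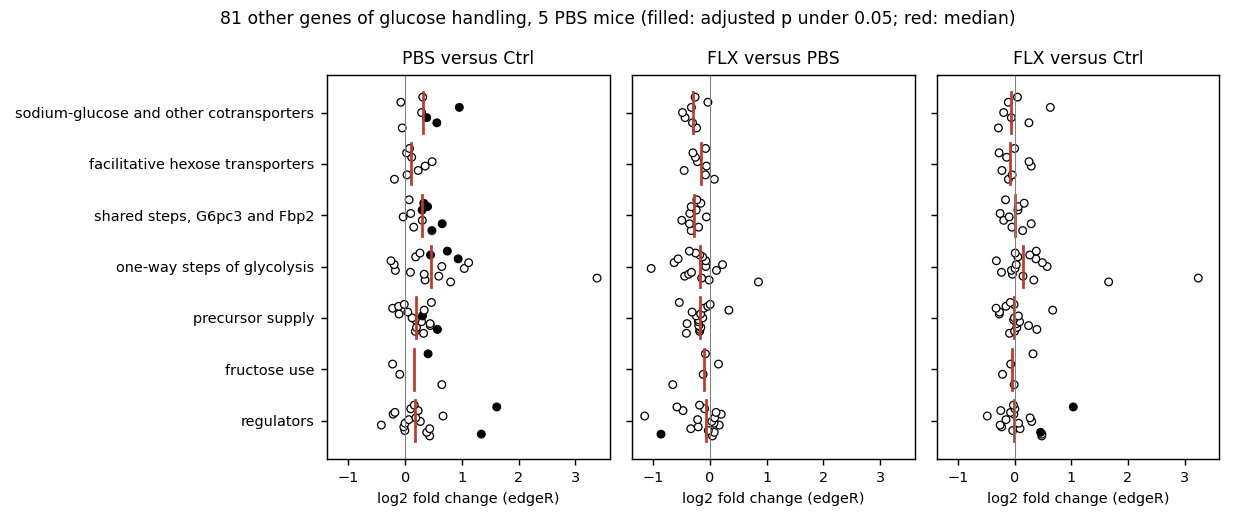
Log2 fold changes from edgeR of 81 other genes of glucose handling, by role, in the 3 comparisons with 5 PBS mice. Each point is a gene, filled where the adjusted p is under 0.05, and red lines are medians. In PBS versus Ctrl 16 genes are filled, all to the right of 0, against 1 in FLX versus PBS and 2 in FLX versus Ctrl.

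Markers of the labelled tissue were present. The summed level of 5 proximal tubule markers was 2100 to 2487 FPKM in Ctrl, 2305 to 2770 in the 5 PBS mice and 2314 to 2660 in FLX mice, and 890 in PBS replicate 6. Of these 5, 1 was called, higher in PBS versus Ctrl. Miox had 780 to 1157 FPKM in Ctrl and 1234 to 1632 in the 5 PBS mice. The 4 markers of the last proximal segment, where Slc5a1 is used, summed to 445 to 611 FPKM in Ctrl, 298 to 459 in PBS and 364 to 679 in FLX mice, and none of the 4 was called. The sum was 24.3 in PBS replicate 6, which nevertheless had the highest Slc5a1. The 4 markers of the early segments summed to 87.0 to 131 FPKM in Ctrl, 96.0 to 150.2 in PBS and 70.4 to 110 in FLX mice, and none of the 4 was called. Their median log2 fold changes were 0.24 in PBS versus Ctrl, -0.45 in FLX versus PBS and -0.22 in FLX versus Ctrl. For the last segment the medians were -0.49, 0.44 and -0.04 in the same order. The part of the proximal tubule markers in the results was not tested. Neutrophil markers differed between groups in the same direction as Pck1. Their sum was 1.27 to 3.18 FPKM in Ctrl, 6.47 to 25.4 in the 5 PBS mice (median 8.93) and 0.219 to 4.76 in FLX mice. It was 8.07 in PBS replicate 5, which had the highest Pck1 of those 5 mice, and 58.9 in PBS replicate 6. Of the 4 neutrophil markers, 2 were higher in PBS versus Ctrl and 1 was lower in FLX versus PBS. The 4 red cell markers, none of which was called, stood at a median of 1.32 (log2) for PBS versus Ctrl and -2.70 for FLX versus PBS, with sums of 30.1 to 635 FPKM in Ctrl, 121 to 1789 in PBS and 25.6 to 239 in FLX mice. The 5 markers of tubule injury stood at 0.85 and -0.24, with none called in either, and at sums of 1.75 to 3.55, 2.97 to 7.60 and 2.88 to 14.6 FPKM. The part of the neutrophil, red cell and tubule injury lists in the results was not tested. Of the 4 markers of liver, which also makes glucose, Cps1 was listed at 0 in all Ctrl and PBS mice and at 0.0461 FPKM at most in FLX mice, while Ttr had 51.4 to 93.0 FPKM in Ctrl, 31.3 to 68.6 in PBS and 22.6 to 39.6 in FLX mice. Apoa2 was at 9.70 FPKM or below and Alb at 2.80 or below in all groups. The liver sum was 58.7 to 103 FPKM in Ctrl, 39.6 to 78.1 in PBS and 31.5 to 49.4 in FLX mice, and 1 of 4 was called, lower in FLX versus Ctrl. The part of liver markers in the results was not tested. The 4 adrenal cortex markers, none of which was called, summed to 0.439 to 0.837 FPKM in Ctrl, 0.685 to 2.47 in PBS and 0.515 to 1.26 in FLX mice. PBS replicate 5 had the highest sum. Star was at 0.428 to 1.21 FPKM and Cyp11b1 at 0.42 or below in all mice. The part of adrenal markers in the results was not tested.

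The genes whose levels followed the members most closely over the 17 mice were found by Pearson's r of log2(FPKM + 0.1) among 12098 genes with a mean of at least 1 FPKM. These are descriptions over mice that share the 3 groups. Pck1 was most like mt-Tt (r = 0.90), Apmap (0.83) and Ripk4 (0.83), and mt-Tt, a mitochondrial transfer RNA gene, had 12.2 FPKM in Ctrl, 24.8 in PBS and 11.4 in FLX mice. G6pc was most like Irak2 (0.85), Dusp12 (0.80) and Timd2 (0.79). Slc5a1 was most like Rtn3 (0.89), Cp (0.83) and Arg2 (0.81), and Arg2, mitochondrial arginase, had 2.85, 9.03 and 5.54 FPKM in Ctrl, PBS and FLX mice. Slc5a2 was most like Gpx3 (0.89), Gm23952 (0.88) and Rmdn1 (0.88), of which Gpx3, the secreted glutathione peroxidase made by the proximal tubule, stood at 11716 FPKM in Ctrl. Slc2a2 was most like Zbtb10 (0.89), Zswim6 (0.86) and Rasa2 (0.84), and Slc2a1 was most like Gprc5a (0.83), Efhd1 (0.83) and Nudt4 (0.82).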

How the data were processed

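The authors sequenced poly(A) RNA of right kidneys in read pairs from strand-marked libraries, used fastp to clean the reads, HISAT-3N to align them to GRCm38 and StringTie for assembly. The submitters' processing notes also name cutadapt 1.9, HISAT2 2.0.4 and StringTie 1.3.4d. For each gene and mouse, the authors deposited FPKM and an estimated count, whose tool is not stated in those sources. Counts are whole, yet in the median mouse more genes stood at 4 (720) than at 3 (484.5), so they were treated as estimates that rest on fewer fragments.

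Counts were compared with edgeR 4.0.16 (R 4.3.3) by quasi-likelihood F tests in a single fit of all 3 groups, with TMM scaling and filterByExpr, with Benjamini-Hochberg adjustment over all genes tested. Standard errors were derived from the fold change and its F statistic. DESeq2 1.42.0 and limma 3.58.1 served as alternatives, with upper-quartile scaling, DESeq2 size factors, no filter, both pseudocounts (0.1 and 1), only the groups compared, a replicate block, only FLX replicates 1 and 2, and each mouse left out in turn. Exact permutation tests used SciPy 1.17.1. The edgeR step was tested on simulated data. Same-numbered mice of different groups correlated above 0.1 in 2 of 16 pairs, so numbers were not taken to pair mice. The labels name separate mice, so p values cover the spread between mice.

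Named were all 10 members, the pathway genes called in any comparison with 2 of each role by highest mean FPKM, and 3 genes most like each of 6 members. Foxo1 was named after its values were seen. A few listed genes and 1 promoter motif are not reported here. The members and gene lists were chosen with earlier results of these data known. Promoter sequences are RefSeq's.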

Additional observations from a re-analysis of the deposited data

Results flagged for a closer look

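PBS replicate 6, which the comparisons with 5 PBS mice leave out, exceeded the highest Ctrl mouse for 9 of the 10 genes. Its levels were 149 FPKM of Slc5a2, 21.1 of Slc5a1, 38.0 of Slc2a2, 12.9 of Slc2a1, 236 of Pcx, 858 of Pck1, 3.24 of Pck2, 295 of G6pc and 147 of Slc37a4. The highest Ctrl values were 127, 13.8, 19.6, 12.4, 122, 413, 2.90, 158 and 73.6 FPKM in the same order. For 7 of the 10 genes, all but Slc5a2, Slc2a1 and Fbp1, this mouse was the highest of all 18.

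Within the 6 PBS mice, its gap to the next mouse as a share of the group's range passed Dixon's critical value of 95% for Slc2a2 (0.626), Pcx (0.698), Pck2 (0.626), G6pc (0.840) and Slc37a4 (0.861). Among the other 5 PBS mice, PBS replicate 5 stood low for Slc5a1, with a gap of 0.783. In all, 40 groups were examined, and chance flags about 1 in 20. No cause of these gaps was tested.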

How the results depend on the processing

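The increase of Pck1 in PBS versus Ctrl kept its direction and its call under all 13 other settings and all 17 fits without a mouse. In FLX versus PBS the decrease of Pck1 was called under 12 of 13, the exception being FLX replicates 1 and 2 only (-0.72, adjusted p = 0.439), where 0 of 21863 genes were called with edgeR (1323 at an unadjusted p under 0.05). The increase of Slc5a1 was called under 8 of 13 and was lost with upper-quartile scaling (adjusted p = 0.0631), no filter (0.0521), only the groups compared (0.0644), FLX replicates 1 and 2 only (0.0603) and the replicate block (0.0996). G6pc in PBS versus Ctrl was called under 5 of 13, with DESeq2 lowest (0.00828) and all 6 PBS mice with DESeq2 highest (0.831).

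Same-numbered mice did not pair: 4 of 17 mice correlated best with their own number. With the replicate block, 1 member was called in PBS versus Ctrl (2 with all 6 PBS mice), 1 in FLX versus PBS and 0 in FLX versus Ctrl, and 1 pathway gene was called in FLX versus Ctrl. Over all genes 419, 67 and 258 were called with the block, against 772, 147 and 744. DESeq2 called 1413, 498 and 1615, limma at a pseudocount of 0.1 gave 770, 255 and 1214 and at 1 gave 734, 242 and 1197, no filter gave 542, 88 and 378, and only the groups compared gave 496, 95 and 717. The 744 became 354 with all 6 PBS mice, and FLX replicates 1 and 2 only left 4. Higher calls in PBS versus Ctrl were 433 against 339 lower with TMM, but 314 against 449 with upper-quartile scaling.

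No filter left 1 member called in PBS versus Ctrl. In FLX versus PBS, DESeq2 called 3 members, Pck1, G6pc and Slc5a1 (2 with all 6 PBS mice, Pck1 and Slc5a1), and 7 pathway genes, only the groups compared called 2 pathway genes, and FLX replicates 1 and 2 only called 0 of either. In FLX versus Ctrl, pathway genes called were 11 with DESeq2, 1 without the filter, 7 with limma at either pseudocount, 5 with only the groups compared and 0 with FLX replicates 1 and 2 only. Without a mouse, members called were 1 to 4, 0 to 2 and 0 to 1 in the 3 comparisons, and pathway genes 9 to 21, 1 to 5 and 0 to 13. Among all genes, these fits called 388 to 1662, 47 to 250 and 271 to 3099. The highest count in each comparison was without Ctrl replicate 3, where 20093 genes were tested. The difference in log2 Slc5a1 to Slc5a2 was 0.055 to 0.16, 0.037 to 0.25 and 0.13 to 0.34, and without Ctrl replicate 3 PBS versus Ctrl reached 0.16 (exact permutation p = 0.0397). The cause of these changes was not tested.

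Signs turned only for fold changes that were not called. In PBS versus Ctrl, fits without a mouse ranged from -0.040 (without PBS replicate 4) to 0.21 for Slc2a2, from -0.031 (without PBS replicate 5) to 0.094 for Pcx and from -0.0021 (without PBS replicate 1) to 0.11 for Fbp1, and Pcx was at -0.012 with upper-quartile scaling. For FLX versus PBS, Slc2a1 ranged from -0.16 to 0.039 (without FLX replicate 5) and was at 0.040 and 0.038 with limma at pseudocounts of 0.1 and 1, and 0.035 with limma and all 6 PBS mice. Pck2 was at -0.059 with all 6 PBS mice, -0.041 with these and the replicate block, -0.061 with these and DESeq2, and -0.017 with FLX replicates 1 and 2 only. Fbp1 was at 0.011 with limma and all 6 PBS mice. For FLX versus Ctrl, FLX replicates 1 and 2 only gave 0.20 for Slc5a2 and 0.084 for Pck1. Limma gave 0.039 for Pck1 and 0.032 for Fbp1 at either pseudocount and with all 6 PBS mice. Without a mouse, Pck1 ranged from -0.12 to 0.062 (without FLX replicate 6), G6pc from -0.086 (without FLX replicate 2) to 0.13 and Slc37a4 from -0.026 (without FLX replicate 2) to 0.079. Upper-quartile scaling gave -0.0028 for G6pc.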
